A study of Mus musculus with 8 samples.

Results

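The genes described here are 44 genes of the unfolded protein response of the endoplasmic reticulum (ER), of the integrated stress response driven by Atf4, and of the cytosolic chaperone system. They were taken from a list of symbols, with small heat shock proteins and mitochondrial chaperones left out. The rule uses no value from these libraries, but the list was drawn up with earlier results of these data known. All 44 were matched to a row of the count table, which holds 31053 genes, of which 17367 had any count. By role they are 15 ER chaperones and folding enzymes, 6 sensors and transcription factors of the unfolded protein response, 6 genes of ER-associated degradation, 7 targets of Atf4, and 10 genes of heat shock factor and cytosolic chaperones.

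RNA was sequenced in bulk from brown adipose tissue (BAT), the thermogenic fat depot, of C57BL6/J mice labelled as 8 weeks old, with 4 libraries labelled WT and 4 labelled Cd36KO. CD36 is a receptor at the cell surface for fatty acids and other lipids. The comparison asked how loss of Cd36 changes BAT. For genotype the labels say no more than Cd36KO, while the study describes a germline deletion and a cross of floxed Cd36 with Csf1r-Cre, a driver active in myeloid cells, and its text ties the BAT transcriptome to the latter mice (MACs CD36KO). For those its methods name an older age than the labels do, while the legend for that transcriptome gives 8 weeks, as the labels do. Whether the WT mice carried the floxed allele or Cre is not given in the sources used here. The labels also name the stromal vascular fraction, the part of the tissue that is left without adipocytes, but the adipocyte genes Adipoq, Plin1 and Ucp1 had at least 2458, 1450 and 4235 normalized counts in every library. The study's methods describe males, whereas Xist had from 772 to 1588 counts per library, and in all 8 the counts of Eif2s3y, Kdm5d and Uty, which lie on the Y chromosome, were 0, while Ddx3y, also on it, had 3 counts in WT replicate 1 and 0 elsewhere. Cd36 mRNA itself stayed abundant in Cd36KO, at 2087 ± 216 normalized counts against 2918 ± 454 in WT (SD, n = 4 each; DESeq2 adjusted p = 0.0602).

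Proteins that enter the ER fold with the help of Hspa5 (BiP), Hsp90b1 (Grp94), lectin chaperones and disulfide isomerases. When unfolded proteins build up, the membrane sensors Ern1 (Ire1), Eif2ak3 (Perk) and Atf6 raise the supply of these helpers through the transcription factors Xbp1, Atf4 and Atf6, and send failed proteins to the proteasome through ER-associated degradation. Eif2ak3 and related kinases phosphorylate eIF2, which slows translation but favours that of Atf4, an activator of amino acid, one-carbon and pro-apoptotic genes. In the cytosol, Hsf1 induces Hsp70 and Hsp90 chaperones and their co-chaperones. Brown adipocytes secrete proteins and make large amounts of membrane lipid, and both load the ER. The sensors are switched on by protein modification and Xbp1 by splicing of its mRNA, and gene counts measure neither.

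The promoters of ER chaperones carry the ER stress response element (ERSE), whose letters are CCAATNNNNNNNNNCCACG. Windows from 250 bases before to 50 bases after each RefSeq start (build GRCm38.p6) were searched on both strands, and 36 of the 44 members had a window. The element lay in 8 of these 36 genes (22.2%), against 37 of all 27025 genes with a window (0.137%). The matches are shown because both leading ER chaperones below carry them. They are written 5′ to 3′ on the strand of the gene, with the matched letters in capitals.

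Hspa5, chr2:34772020-34772048, plus strand: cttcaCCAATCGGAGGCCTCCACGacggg
Hsp90b1, chr10:86705633-86705661, minus strand: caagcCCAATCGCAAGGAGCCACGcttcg
Hsp90b1, chr10:86705528-86705556, minus strand: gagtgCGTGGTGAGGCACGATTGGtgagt
Calr, chr8:84847070-84847098, minus strand: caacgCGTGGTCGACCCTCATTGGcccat
Canx, chr11:50325795-50325823, minus strand: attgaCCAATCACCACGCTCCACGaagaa
Pdia6, chr12:17266486-17266514, plus strand: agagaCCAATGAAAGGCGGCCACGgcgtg
Dnajc3, chr14:118937822-118937850, plus strand: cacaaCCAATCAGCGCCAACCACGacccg
Creld2, chr15:88819515-88819543, plus strand: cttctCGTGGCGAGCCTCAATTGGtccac
Syvn1, chr19:6046527-6046555, plus strand: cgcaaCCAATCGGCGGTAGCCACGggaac

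The match of Hspa5 spanned bases -65 to -47 from its start. Hsp90b1 had a match on its own strand from -212 to -194 and a second on the opposite strand from -107 to -89. A shorter form, ERSE-II (ATTGGNCCACG), lay in Herpud1 and Dnajb11, 2 of 36 members (5.56%), against 0.0444% of all genes. The Atf4 element (CARE, TGATGNAA) lay in Asns, Trib3, Chac1 and Herpud1, 4 of 36 members (11.1%), against 4.51% of all genes. The heat shock element (HSE, GAANNTTCNNGAA) lay in Hsph1 alone, 1 of 36 (2.78%), against 0.662%, and the core of the Xbp1 element (TGACGTGG) in 0 of 36, against 0.714%. Examples of the forms that had a match are given in the same manner.

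Herpud1, ERSE-II, chr8:94386372-94386392, plus strand: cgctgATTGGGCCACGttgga
Asns, CARE, chr6:7693220-7693237, minus strand: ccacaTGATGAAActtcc
Trib3, CARE, chr2:152344034-152344051, minus strand: caggtTTACATCAgccgg
Hsph1, HSE, chr5:149636283-149636305, minus strand: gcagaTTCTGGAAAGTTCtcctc

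A match to these letters is a description of the window and not a binding site shown by data. The members were listed because they are known targets, so a high share of matches was to be found among them.

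Total counts ranged from 2679785 to 4097953 per library, and every pair of libraries differed by more than sampling noise (chi-square per degree of freedom at least 6.43). WT replicate 1 stood apart. It held the highest summed count of 16 skeletal muscle markers, 79112 normalized counts against 1017 to 14061 in the other WT and 164 to 9590 in the Cd36KO libraries. Its score of 10 white fat markers (mean log2 CPM) was 2.80, against 4.34 to 4.69 in the other WT and 2.05 to 2.83 in the Cd36KO libraries. In bulk tissue, fewer cells of a type and less RNA per cell cannot be told apart. Normalized counts below are raw counts over the size factor of each library, given for WT replicates 1 to 4 and then for the unnumbered Cd36KO library and Cd36KO replicates 2 to 4. The unnumbered library is the one whose column carries no replicate number.

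Few members differed between the groups. Of the 39 members with an adjusted p, 0 passed DESeq2's Wald test (Benjamini-Hochberg adjusted p under 0.05) as higher in Cd36KO and 1, Psat1, passed as lower. Over all 9617 genes with an adjusted p, 2.95% were called, 1.42% as higher and 1.53% as lower. At an unadjusted p under 0.05 there were 1 higher and 5 lower members, 6 of 39 or 15.4%, where 15.6% of all genes stood past that mark. The edgeR quasi-likelihood test called 0 of 39 members, with 8 at an unadjusted p under 0.05, where it called 0.143% of 9793 genes and 16.1% stood past that mark. Limma on the deposited log2 values called 0 of 44, with 7 at that mark, against 0.0461% and 11.5% of 17367 genes. The 5 members without an adjusted p, Sdf2l1, Creld2, Chac1, Hspa1a and Hspa1b, had too few counts.

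The median log2 fold change (Cd36KO against WT) over the 44 members was -0.11, with 21 above and 23 below 0, and it was -0.04 over all genes with a p-value. Most members stayed close to their WT level. Of the 24 members with a mean of at least 50 normalized counts, 22 differed by less than 1.5-fold, as did 4917 of 5528 genes at that level. All Cd36KO values lay above all WT values for 2 of these 24, Hspa5 and Hsp90ab1 (8.33%), where 6.91% of all genes at that level did so, and they lay below for 0 of 24, where 3.96% did. The spread among libraries was also near that of other genes, with a median SD on the log2 scale of 0.26 in WT and 0.22 in Cd36KO for members and of 0.30 and 0.24 for all genes at that level. No library was extreme throughout, although the unnumbered Cd36KO library was the highest of the 8 for 11 members and the lowest for 10, and WT replicate 1 was the lowest for 11.

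**Figure D1:**
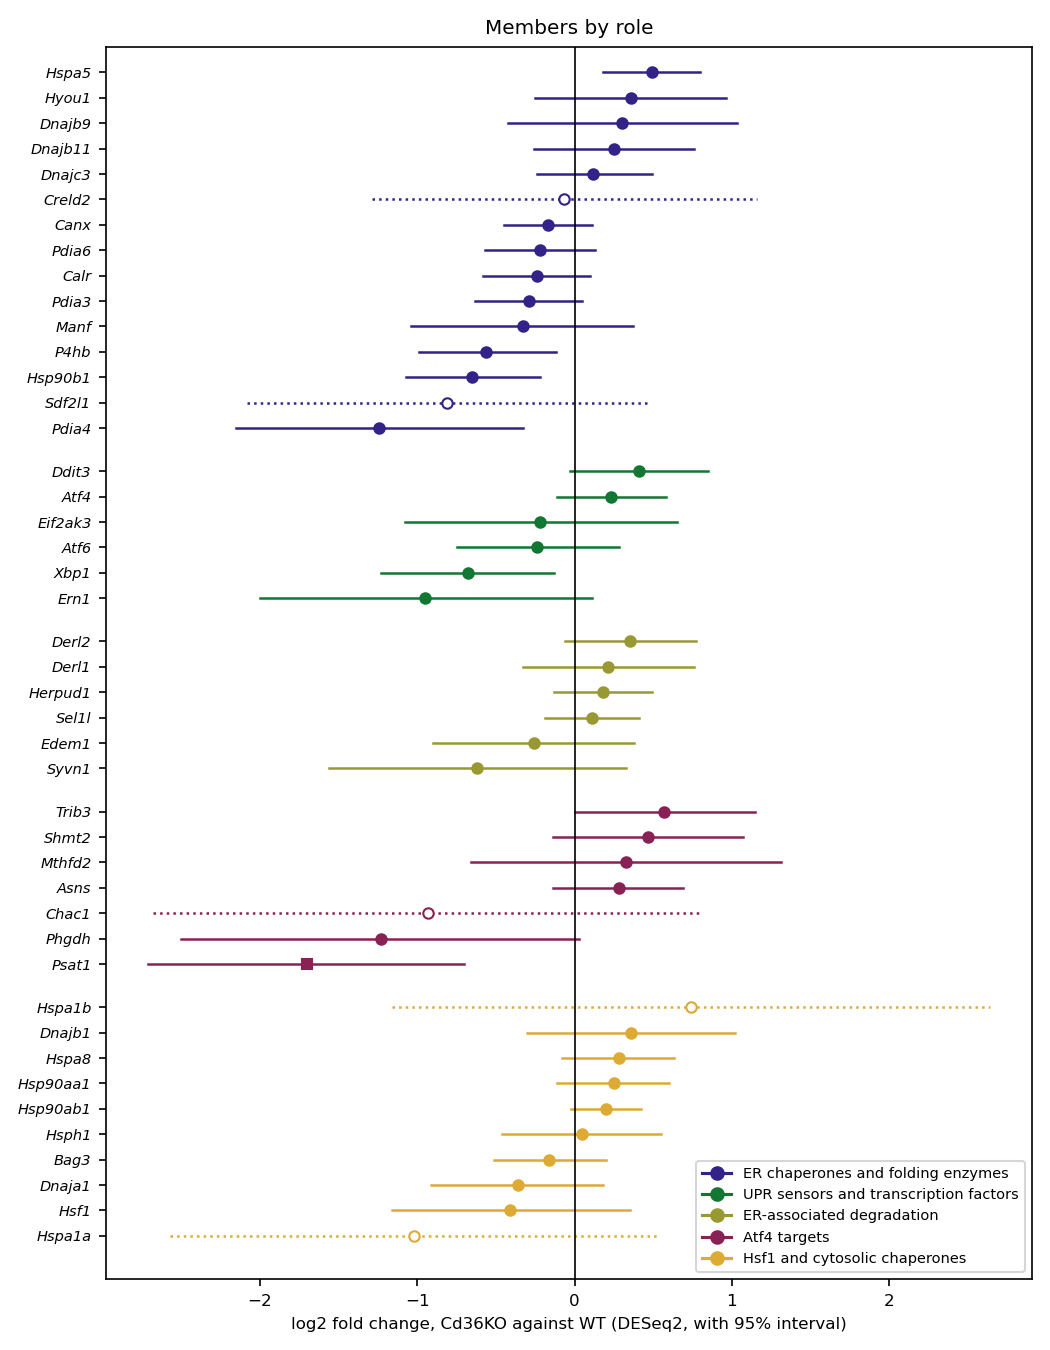
Log2 fold change (Cd36KO against WT) of the 44 members from DESeq2, by role, with 95% intervals as bars. Open points with dotted bars had no adjusted p, and the square is Psat1 at -1.70, the only member called; of the others, the intervals of Hspa5, Hsp90b1, Pdia4, P4hb and Xbp1 do not include 0.

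Among the ER chaperones and folding enzymes, 5 of 15 log2 fold changes were above 0 and 10 below, with a median of -0.22, and the leading chaperones Hspa5 and Hsp90b1 lay on opposite sides. DESeq2 called 0 of the 13 with an adjusted p, with 1 higher and 3 lower at an unadjusted p under 0.05, and edgeR and limma called 0 with 4 each at that mark. Over all genes 15.6% in DESeq2, 16.1% in edgeR and 11.5% in limma stood past it. The same shares apply to the role groups below. Hspa5 (ENSMUSG00000026864, chromosome 2, 34771970 to 34777547, plus strand) is the Hsp70 of the ER lumen and holds the sensors inactive until unfolded proteins draw it away. It had 1776, 2002, 2116 and 2362 normalized counts in WT and 3546, 2832, 2760 and 2475 in Cd36KO. Every Cd36KO library thus lay above every WT library. The log2 fold change of Hspa5 was 0.49 ± 0.16 (SE, 95% interval 0.18 to 0.80), with a DESeq2 adjusted p of 0.061 and an edgeR adjusted p of 0.199, and neither passed. Over the 18 alternatives its adjusted p ran from 0.00783 to 0.84 and passed in 4, among them the fit without WT replicate 4 (adjusted p = 0.0134).

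Hsp90b1 (ENSMUSG00000020048, chromosome 10, 86690209 to 86705509, minus strand), the Hsp90 of the ER, serves integrins, Toll-like receptors and other membrane clients. Its normalized counts were 960, 843, 943 and 595 in WT and 435, 733, 473 and 497 in Cd36KO. The groups overlapped, since Cd36KO replicate 2 lay above WT replicate 4. The log2 fold change of Hsp90b1 was -0.65 ± 0.21 (SE, 95% interval -1.07 to -0.22), with a DESeq2 adjusted p of 0.0686 that did not pass. Without WT replicate 4 the log2 fold change was -0.78 (DESeq2 adjusted p = 0.00402), in a fit that called 8.71% of all genes tested. Without Cd36KO replicate 2 it was -0.83 (DESeq2 adjusted p = 0.00433), in a fit that called 5.86%. Hsp90b1 was also called with the white fat score as a covariate (DESeq2 adjusted p = 0.0357). Over the 18 alternatives its adjusted p ran from 0.00402 to 0.53 and passed in these 3.

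The ratio of Hspa5 to Hsp90b1 within each library was then formed, a measure chosen after the values were seen and given with no test. It was 1.85, 2.38, 2.24 and 3.97 in WT and 8.16, 3.86, 5.84 and 4.98 in Cd36KO. The highest WT ratio lay just above the lowest Cd36KO ratio. Of the 8 members with an ERSE, only Hspa5 and Dnajc3 had a log2 fold change above 0, and the other 6 were below.

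The disulfide isomerases and lectin chaperones among the members had log2 fold changes below 0, but none passed. Pdia4 and P4hb are described library by library because their values stood out. Pdia4 had 74.9, 45, 102 and 30.7 normalized counts in WT and 12.3, 48.3, 31.7 and 15.3 in Cd36KO. The Pdia4 groups overlapped widely, with a log2 fold change of -1.24 ± 0.46 (SE; DESeq2 adjusted p = 0.125). With the muscle marker score as a covariate Pdia4 was called, at -2.02 (DESeq2 adjusted p = 0.0123). Pdia4 was also called without WT replicate 4, in a fit that called 8.71% of all genes tested. P4hb, which also serves as a subunit of the collagen prolyl hydroxylase, had 159, 195, 239 and 273 normalized counts in WT and 186, 132, 134 and 136 in Cd36KO. The unnumbered Cd36KO library kept the P4hb groups from parting, and the log2 fold change was -0.56 ± 0.22 (SE; DESeq2 adjusted p = 0.159). P4hb was called without WT replicate 1 (-0.68, DESeq2 adjusted p = 0.0496) and in the 6 libraries of replicates 2 to 4 fitted without a block. No other alternative called it, and its edgeR adjusted p was 0.18.

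Calr and Canx, which retain glycoproteins in the ER until they are folded, had log2 fold changes of -0.24 (95% interval -0.58 to 0.10) and -0.17 (-0.45 to 0.11). Pdia3, their isomerase partner, was at -0.29 and Pdia6 at -0.22. The upper ends of these 4 intervals were between 0.05 and 0.13. The J-domain co-chaperones of Hspa5 among the members had log2 fold changes above 0, at 0.30 for Dnajb9, 0.25 for Dnajb11 and 0.12 for Dnajc3. Hyou1, the nucleotide exchange factor of Hspa5, was at 0.36. The adjusted p-values of these genes were between 0.635 and 0.82, so none passed. Dnajc1, another such co-chaperone that is not a member, lay lower in Cd36KO, as given below. Manf, a secreted survival factor that binds Hspa5, was at -0.33, Sdf2l1 at -0.81 and Creld2 at -0.07, the last 2 on at most 16 and 19 counts in a library.

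Stromal cell markers had a lower summed count in Cd36KO, while their mean log2 CPM overlapped (4.99 to 5.63 in WT, 4.76 to 5.01 in Cd36KO). The summed normalized count of 9 fibroblast and stromal progenitor markers was 2403 to 3171 in WT and 1750 to 2109 in Cd36KO, all 9 had counts, and 2 were called lower. Brown adipocyte markers moved the other way, with a sum over 10 genes of 17808 to 23240 in WT and 31813 to 40525 in Cd36KO and 4 called higher. The sum of 10 B cell and plasma cell markers, cells rich in ER, was 113 to 360 in WT and 220 to 363 in Cd36KO, with 0 called and Cd79a at 0 in every library. The part of these cell types in the values of the folding genes was not tested.

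**Figure D2:**
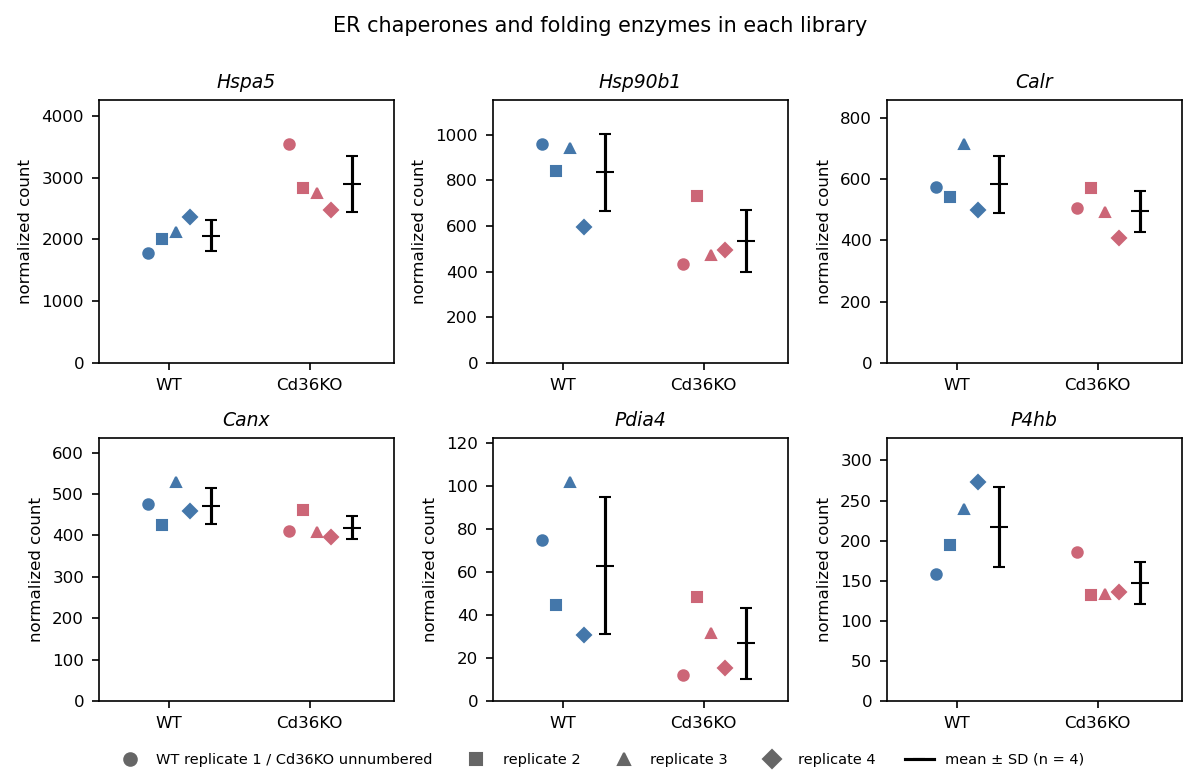
Normalized counts of 6 ER chaperones and folding enzymes in each library, by group, with the mean ± SD (n = 4) in black. The Hspa5 points of Cd36KO (2475 to 3546) sit above those of WT (1776 to 2362), whereas the groups of Hsp90b1, Calr, Canx, Pdia4 and P4hb overlap.

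None of the sensors and transcription factors of the unfolded protein response passed the test. Log2 fold changes were above 0 for Atf4 and Ddit3 and below 0 for the other 4, with a median of -0.23. DESeq2 called 0 of 6, with 1 lower at an unadjusted p under 0.05, edgeR called 0 with 2 at that mark and limma 0 with 1. Ern1 (Ire1), the kinase and RNase that splices Xbp1, had 16.2, 19.5, 11.8 and 15.8 normalized counts in WT and 15.6, 3.45, 8.18 and 6.1 in Cd36KO. The unnumbered Cd36KO library was at the WT level and the other 3 lay below all WT libraries. The log2 fold change of Ern1 was -0.95 ± 0.54 (SE; DESeq2 adjusted p = 0.398).

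Xbp1 (ENSMUSG00000020484, chromosome 11, 5520659 to 5525893, plus strand), which drives chaperone, lipid synthesis and degradation genes once spliced, had 63.2, 110, 67 and 89 normalized counts in WT and 46.8, 56.4, 37.8 and 64.1 in Cd36KO. Only Cd36KO replicate 4 reached the WT range, at its lower end. The log2 fold change of Xbp1 was -0.68 ± 0.28 (SE, 95% interval -1.23 to -0.13; DESeq2 adjusted p = 0.183), and its adjusted p stayed above the threshold in all 17 alternatives that gave one, from 0.137 to 0.814. Atf6, which is cleaved in the Golgi to release its activator domain, had 64.1, 92.6, 109 and 85.1 normalized counts in WT and 51.3, 92.1, 69.6 and 83.9 in Cd36KO. These groups overlapped, with a log2 fold change of -0.24 (95% interval -0.75 to 0.28; DESeq2 adjusted p = 0.745).

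Eif2ak3 (Perk) had 22.6, 20.4, 16.5 and 13.8 normalized counts in WT and 10, 11.5, 24.5 and 16.8 in Cd36KO, a log2 fold change of -0.22 ± 0.44 (SE; DESeq2 adjusted p = 0.876). Both groups spanned much the same range, and the 95% interval of Eif2ak3, from -1.08 to 0.65, leaves room for a change of over 1.5-fold either way. Atf4 (ENSMUSG00000042406, chromosome 15, 80255184 to 80257541, plus strand), whose activity is set mainly by translation, had 628, 708, 472 and 488 normalized counts in WT and 758, 674, 628 and 645 in Cd36KO. WT replicates 3 and 4 lay below every Cd36KO library and WT replicates 1 and 2 reached their range. The log2 fold change of Atf4 was 0.23 (95% interval -0.11 to 0.58; DESeq2 adjusted p = 0.553). Ddit3 (Chop), the pro-apoptotic factor downstream of Atf4, had 183, 178, 141 and 112 normalized counts in WT and 176, 166, 240 and 233 in Cd36KO. Cd36KO replicates 3 and 4 stood above all WT libraries and the other 2 did not, with a log2 fold change of 0.41 (95% interval -0.03 to 0.85; DESeq2 adjusted p = 0.367). Ddit3 shares exon bases with Mars on the opposite strand, and whether counting used strand is not stated, so its counts may hold reads of Mars.

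**Figure D3:**
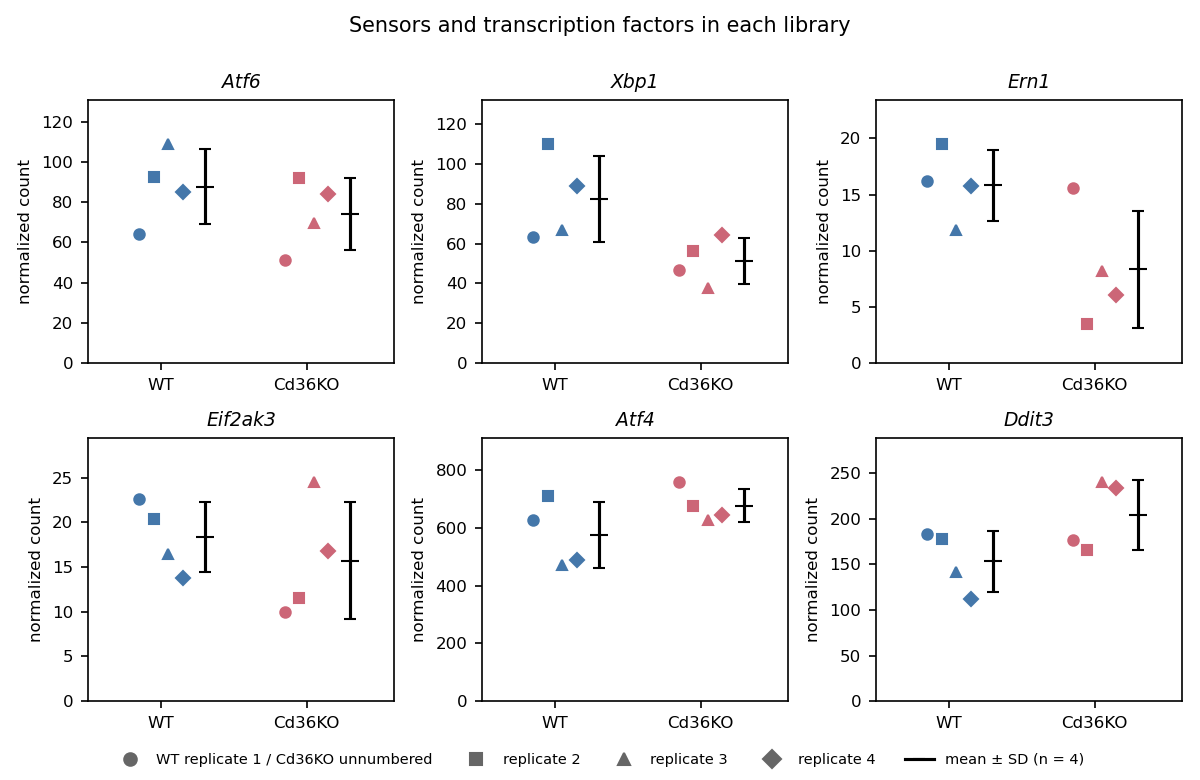
Normalized counts of the 6 sensors and transcription factors in each library, by group, with the mean ± SD (n = 4) in black. The groups overlap for all 6, and for Xbp1 only at a WT value of 63.2 and a Cd36KO value of 64.1.

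Genes of ER-associated degradation showed small differences. Of the 6, 4 log2 fold changes were above 0 and 2 below, with a median of 0.15, and DESeq2, edgeR and limma called 0, each with 0 at an unadjusted p under 0.05. Derl2, a derlin that forms part of the exit channel for failed proteins, had 131, 179, 140 and 143 normalized counts in WT and 238, 152, 162 and 207 in Cd36KO. Only WT replicate 2 overlapped with Cd36KO, and the log2 fold change of Derl2 was 0.35 (95% interval -0.06 to 0.77; DESeq2 adjusted p = 0.426). Sel1l, the scaffold of the Hrd1 ubiquitin ligase complex, which brown fat is known to need, had 249, 256, 279 and 254 normalized counts in WT and 286, 257, 257 and 317 in Cd36KO. Its groups overlapped closely, at 0.11 (95% interval -0.19 to 0.41; DESeq2 adjusted p = 0.807). Herpud1, which organizes that complex and is among the genes most readily induced by ER stress, was at 191 ± 17.4 in WT against 217 ± 5.29 in Cd36KO (SD, n = 4 each), or a log2 fold change of 0.18. Derl1 was at 0.21. Edem1, a lectin-like factor that hands over glycoproteins, and Syvn1, the Hrd1 ligase itself, were at -0.26 and -0.62, Syvn1 on 139 counts in all beside an overlapping opposite-strand gene, Mrpl49, with 911.

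The targets of Atf4 did not move together. Of the 7, 4 log2 fold changes were above 0 and 3 below, with a median of 0.28, and the range ran from -1.70 to 0.57. DESeq2 called 0 higher and 1 lower of the 6 with an adjusted p, with 0 higher and 1 lower at an unadjusted p under 0.05. Psat1 (ENSMUSG00000024640, chromosome 19, 15904678 to 15947337, minus strand), the aminotransferase of serine synthesis, was the single call. It had 9.03, 51, 58.8 and 60.3 normalized counts in WT and 20.1, 12.7, 10.2 and 12.2 in Cd36KO. WT replicates 2, 3 and 4 lay far above the Cd36KO libraries, and WT replicate 1 lay below all of them. Psat1 fell in Cd36KO, with a log2 fold change of -1.70 ± 0.51 (SE; DESeq2 adjusted p = 0.0378), and 3 of 4 WT libraries showed this direction against every Cd36KO library. The call was not kept by edgeR (adjusted p = 0.131) or limma (adjusted p = 0.312). Without WT replicate 1 the log2 fold change of Psat1 was -2.05 (DESeq2 adjusted p = 2.02e-05), without WT replicate 3 it was -1.54 (adjusted p = 0.188) and without the unnumbered Cd36KO library -1.93 (adjusted p = 0.0523). The other 5 fits that left out a library gave Psat1 no adjusted p.

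Phgdh, the enzyme that opens the same serine route, is given by library because its values resembled those of Psat1. It had 6.32, 30.6, 10.6 and 34.6 normalized counts in WT and 2.23, 13.8, 12.3 and 6.86 in Cd36KO. WT replicates 2 and 4 were high and the rest overlapped, with a log2 fold change of -1.23 ± 0.64 (SE; DESeq2 adjusted p = 0.336). Psph, which closes the route and is not a member, was at 9.9 ± 4.22 in WT against 12.2 ± 3.07 in Cd36KO (SD, n = 4 each).

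White fat markers moved with Psat1. The summed count of 10 such markers was 697 to 5215 in WT and 580 to 1053 in Cd36KO, with WT replicate 1 at 697, 6 called lower, and Hoxc10 and Tcf21 at 0 in every library. WT replicate 3, with the highest sum at 5215, had 10.6 normalized counts of Phgdh, within the Cd36KO range of 2.23 to 13.8. With the white fat score as a covariate the log2 fold change was 1.0 for Psat1 and 0.22 for Phgdh, above 0 in place of below, neither with an adjusted p. The score was 4.34 to 4.69 in WT replicates 2 to 4 and 2.05 to 2.83 in Cd36KO. Only WT replicate 1, at 2.80, parted it from genotype, so these values rest on that library. The part of white fat in them was not tested. That covariate also moved the median of genes with a mean of at least 50 from 0.03 to 0.14.

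Asns, the asparagine synthetase with an Atf4 element next to its start, had 78.5, 108, 94.1 and 94 normalized counts in WT and 105, 115, 97.2 and 135 in Cd36KO. Only WT replicate 2 reached into the Cd36KO range, and the log2 fold change of Asns was 0.28 (95% interval -0.14 to 0.69; DESeq2 adjusted p = 0.577). Trib3, a pseudokinase that feeds back on Atf4, had 35.9 ± 8.88 normalized counts in WT against 53.2 ± 7.41 in Cd36KO (SD, n = 4 each), or a log2 fold change of 0.57 (95% interval -0.00 to 1.15; DESeq2 adjusted p = 0.327). The mitochondrial one-carbon enzymes Shmt2 and Mthfd2 were at 0.47 and 0.33. All Cd36KO values of Shmt2 (36.8 to 55.7) lay above all WT values (21.2 to 36.6), with an adjusted p of 0.497 in DESeq2. Chac1, which breaks down glutathione, had at most 13.5 normalized counts in a library, and a difference was not detectable at this depth.

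**Figure D4:**
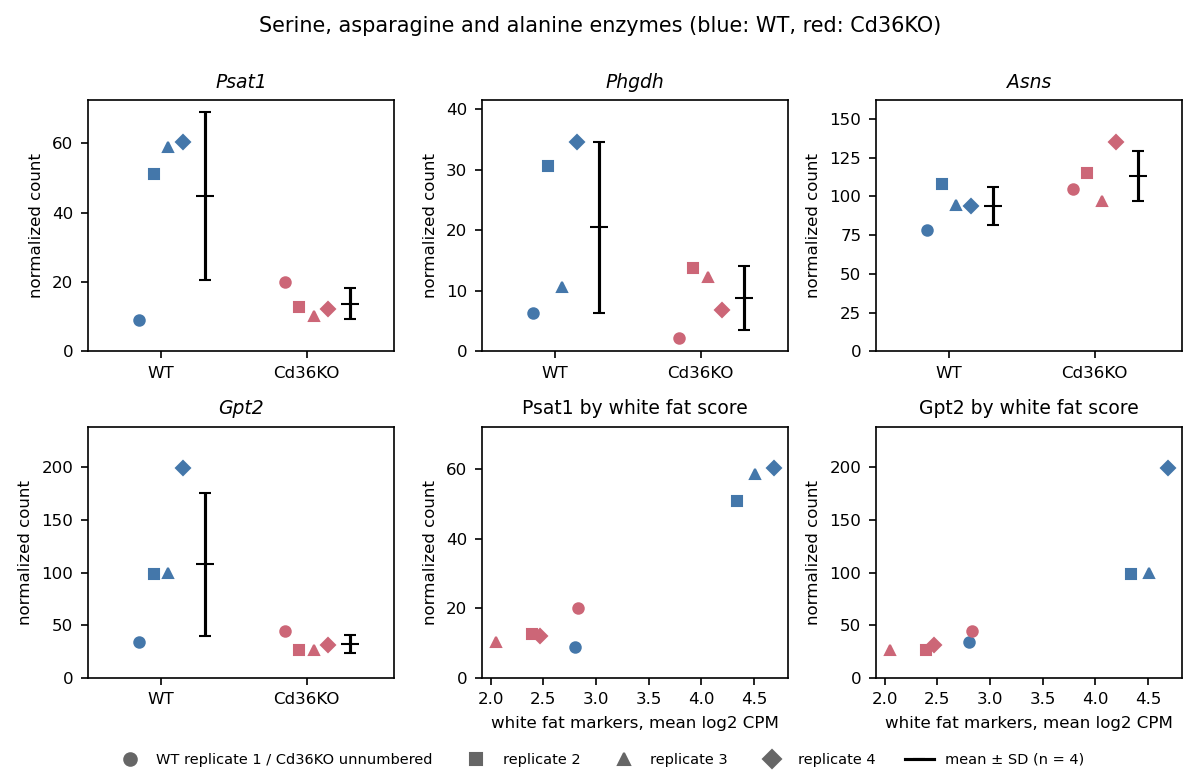
Normalized counts of Psat1, Phgdh, Asns and Gpt2 in each library with the mean ± SD (n = 4) in black, and of Psat1 and Gpt2 against the white fat marker score (mean log2 CPM). WT replicate 1, at a score of 2.80, had 34.3 counts of Gpt2, among the Cd36KO libraries, and 9.03 of Psat1, below all of them.

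Cytosolic chaperones differed little, and the inducible Hsp70 genes Hspa1a and Hspa1b had few counts. Of the 10 genes, 6 log2 fold changes were above 0 and 4 below, with a median of 0.13, and DESeq2, edgeR and limma called 0, each with 0 at an unadjusted p under 0.05. Hsf1, the heat shock factor, had 25.3, 17.8, 29.4 and 36.6 normalized counts in WT and 13.4, 24.2, 20.5 and 23.6 in Cd36KO. Its groups overlapped, at -0.41 ± 0.38 (SE; DESeq2 adjusted p = 0.678). Hspa1a, an inducible Hsp70, had 14.4, 7.64, 1.18 and 6.92 normalized counts in WT and 4.46, 3.45, 5.11 and 2.29 in Cd36KO. Hspa1b, its near-identical neighbour with which it may share reads, had 2.71, 0.849, 1.18 and 3.96 in WT and 2.23, 4.6, 3.07 and 4.58 in Cd36KO. Outside WT replicate 1 Hspa1a was at 1.18 to 7.64, Hspa1b reached at most 4.6, and neither had an adjusted p.

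Hsp90ab1 (ENSMUSG00000023944, chromosome 17, 45567775 to 45573271, minus strand), the constitutive Hsp90, had 8914, 9177, 9615 and 9322 normalized counts in WT and 10245, 9860, 11602 and 10873 in Cd36KO. Every Cd36KO library lay above every WT library, but the step was small, a fold of 1.15. The log2 fold change of Hsp90ab1 was 0.20 ± 0.11 (SE, 95% interval -0.02 to 0.42), with an adjusted p of 0.381 in DESeq2 and 0.595 in edgeR. Hsp90aa1, its inducible form, was at 0.25 (95% interval -0.11 to 0.60) and Hspa8, the constitutive Hsp70, at 0.28 (-0.08 to 0.63), with groups that overlapped. Processed copies of these genes exist in the genome and could take or give reads.

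Dnajb1, the co-chaperone of Hsp70 that Hsf1 induces, had 47.8, 137, 95.3 and 106 normalized counts in WT and 173, 79.4, 90 and 152 in Cd36KO. The ranges of Dnajb1 overlapped widely, with a log2 fold change of 0.36 ± 0.34 (SE; DESeq2 adjusted p = 0.672). It was called with the white fat score as a covariate, at 1.65 (DESeq2 adjusted p = 0.00877), in a fit that called 8.47% of 6717 genes higher, and was at -0.10 under the replicate block (DESeq2 adjusted p = 0.999). Dnaja1, another J-domain co-chaperone, had 196, 201, 149 and 407 normalized counts in WT and 199, 177, 186 and 178 in Cd36KO. A single library, WT replicate 4, set its log2 fold change of -0.36 (DESeq2 adjusted p = 0.573), which was 0.02 without it. Hsph1, an exchange factor, was at 0.05 and Bag3, the partner of Hsp70 in selective autophagy, at -0.16. The summed count of 12 immediate early genes, which mark handling of tissue, was 381 to 449 in WT and 284 to 352 in Cd36KO, all 12 had counts and 1 was called lower. Their part in the chaperone values was not tested.

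**Figure D5:**
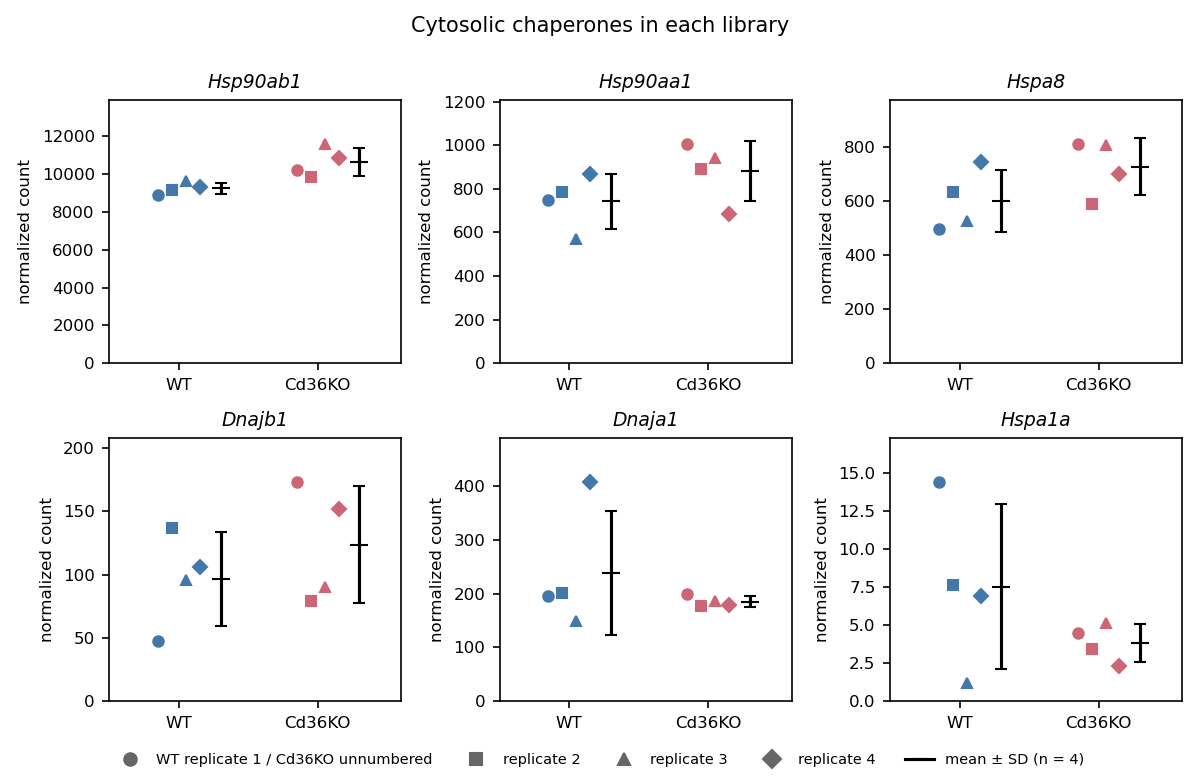
Normalized counts of 6 cytosolic chaperones and co-chaperones in each library, by group, with the mean ± SD (n = 4) in black. Hsp90ab1 alone shows groups that do not overlap (8914 to 9615 in WT, 9860 to 11602 in Cd36KO), and 1 WT library stands at 407 for Dnaja1.

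A list of 156 other genes of the same pathways gave a like picture. DESeq2 called 0 higher and 1 lower of the 132 with an adjusted p, where 1.42% and 1.53% of all genes were called. At an unadjusted p under 0.05 there were 9 higher and 10 lower over all 156. Of all 17361 genes with a p-value, 792 were higher and 902 lower at that mark. The edgeR test called 0, with 18 of 133 at that mark against 16.1% of all genes, and limma 0, with 19 of 156 against 11.5%. The median log2 fold change was -0.07. The gene called, Gpt2 (ENSMUSG00000031700, chromosome 8, 85492576 to 85527560, plus strand), encodes the mitochondrial alanine aminotransferase and is an Atf4 target. It had 34.3, 98.5, 100 and 199 normalized counts in WT and 44.6, 26.5, 26.6 and 31.3 in Cd36KO. WT replicate 1 lay within the Cd36KO range of Gpt2. Gpt2 fell by 1.74 on the log2 scale (SE 0.42, DESeq2 adjusted p = 0.00592), in 3 of 4 WT libraries against every Cd36KO library, and its edgeR adjusted p was 0.104. With the white fat score as a covariate it was at 0.37 (DESeq2 adjusted p = 0.703).

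The genes named in this paragraph were chosen after their values were seen. In the secretory pathway list (67 genes, 60 with an adjusted p, 0 called, 1 higher and 6 lower at an unadjusted p under 0.05) the median was -0.13. Of all 17361 genes with a p-value, 792 were higher and 902 lower at that mark, with a median of -0.04. Of those with an adjusted p 2.95% were called. Ssr1, a subunit of the translocon-associated complex, had 185 ± 10.8 normalized counts in WT against 128 ± 8.45 in Cd36KO (SD, n = 4 each), without overlap, at -0.53 (DESeq2 adjusted p = 0.0571). Dnajc1 and Crebrf also lay below without overlap, at -0.50 and -0.40, and Prkcsh, a subunit of the glucosidase that trims glycoproteins for Calr and Canx, lay above at 0.51 (DESeq2 adjusted p = 0.0647). Of the 46 genes of this list with a mean of at least 50, 4 lay below WT without overlap and 1 above. Of all 5528 genes at that level 3.96% lay below and 6.91% above. In the list of eIF2 kinases, Atf4 partners and targets (44 genes, 30 with an adjusted p, 0 called higher and 1 lower) the median was -0.15. Atf5 had 376, 524, 462 and 647 normalized counts in WT and 857, 572, 586 and 1051 in Cd36KO, with 1 WT library above 2 Cd36KO libraries, at 0.61 (DESeq2 adjusted p = 0.147). The stress hormones Fgf21 and Gdf15 had at most 1 and 10 counts in a library, and the cystine transporter Slc7a11 had 1 count in all.

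In the cytosolic list (45 genes, 42 with an adjusted p, 0 called by DESeq2, 5 higher and 1 lower at an unadjusted p under 0.05) the median was 0.07. Of its 36 genes with a mean of at least 50, 6 lay above WT without overlap and 1 below, where 6.91% and 3.96% of all 5528 genes at that level did. Those above were the Hsp90 co-chaperones Fkbp4, Ptges3 and Unc45a and the chaperonin subunits Tcp1, Cct5 and Cct8, with log2 fold changes from 0.21 to 0.64. Another chaperonin subunit, Cct2, lay below at -0.45, so members of a single ring complex stood on both sides. None of these passed, with adjusted p-values in DESeq2 of 0.141 to 0.522.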

How the data were processed

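Brown adipose tissue RNA of 4 WT and 4 Cd36KO mice was measured by single-end digital mRNA-seq. The methods of the study name bbduk, STAR and HTSeq-count, whereas the submitters' processing notes name Trimmomatic and HISAT2 with build GRCm38. Neither source states the annotation release, whether strand was used, or whether molecular identifiers were counted. The deposited table used here holds raw counts per gene, and the authors also deposited log2 values in a second table, which equal log2 of the count over a size factor plus 1 (largest gap 4.97e-14). Symbols and coordinates came from GENCODE M21 on GRCm38 (31011 of 31053 rows matched), and promoter windows from RefSeq. The listed gene Cct6a was not analysed here.

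All genes were fitted with DESeq2 1.42.0 (Wald test, default independent filtering, genotype only) in R 4.3.3, because the study's methods name it, with Benjamini-Hochberg adjustment and a threshold of 0.05. Alternatives were edgeR 4.0.16 (quasi-likelihood), limma 3.58.1 on the log2 values, TMM factors, other filters, the replicate block, leaving out each library, and muscle or white fat marker scores as covariates. Fits were tested on simulated counts. Total counts of 2679785 to 4097953 limit precision for genes with few counts. The series text calls the samples biological replicates without tying each library to a mouse, and a legend gives as many mice as libraries per group, so p-values measure the spread between these samples, which may be partly technical.

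Members, gene lists and marker lists were chosen with earlier results of these data known. Values per library are given for members with an adjusted p under 0.05, for members with a mean of at least 50 normalized counts and groups that did not overlap, for the highest and lowest log2 fold change in each role at that level, for 10 set regulators and chaperones, and for other pathway genes that were called. Genes shown by library beyond that rule, Pdia4, P4hb, Phgdh and Atf5 in the text and Calr, Canx, Hsp90aa1 and Hspa8 in plots, were chosen after their values were seen, as were the Hspa5 to Hsp90b1 ratio and the means given for other genes. Same-numbered libraries were checked for pairing by the correlation of their deviations from the group means over 5528 genes. Figures were drawn with matplotlib.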

Additional observations from a re-analysis of the deposited data

Results flagged for a closer look

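Groups of 4 libraries were searched for a library far from the other 3, by Dixon's gap over range against its critical value for 4. Of 90 groups, 3 were past it, where chance gives 4.5.

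P4hb in Cd36KO had 186 normalized counts in the unnumbered library, against 132 to 136 in the other 3. Psat1 in WT had 9.03 in replicate 1, against 51 to 60.3 in the others, in the library whose white fat score was within the Cd36KO range. Shmt2 in WT had 21.2 in replicate 3, against 35.7 to 36.6. The cause of each was not tested.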

How the results depend on the processing

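Members called ranged from 0 to 3 higher and from 0 to 2 lower over the alternatives, which gave 23 to 44 members an adjusted p and called from 0.0461% (limma) to 10.7% (white fat score) of all genes. The cause of each change was not tested. With edgeR 0 members and 0 other pathway genes were called lower, and the median log2 fold change of the members it kept was 0.036. Limma also called 0 members and 0 others lower. TMM factors gave 1 member higher, Hspa5 (adjusted p = 0.0485). The filter of 10 counts in 4 libraries moved the median to 0.042 by removing members with few counts. With independent filtering off 0 members were lower, and with it tuned to 0.05, an alternative chosen after seeing the data, 1 was higher (Hspa5), 0 lower and 2 other genes lower. The muscle score gave 0 other genes lower and, as the 1 member lower, Pdia4. The white fat score, with 32 members tested and 8.47% of 6717 genes called higher and 2.25% lower, gave 3 members higher (Hspa5, Derl1 and Dnajb1), 1 lower (Hsp90b1), a median of 0.184, and 11 other genes higher and 0 lower. Among the genes named by the rule above, it reversed Psat1 (1.0), Gpt2 (0.37), Atf6 (0.15), Ddit3 (-0.05) and Dnaja1 (0.11). Members outside that rule are not in this list, and Phgdh was among those also reversed.

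Leaving out each library in turn gave 0 to 1 members higher, 0 to 2 lower, a median of -0.165 to -0.006, and 0 to 2 other genes higher and 0 to 3 lower. These fits called from 1.11% (without the unnumbered Cd36KO library) to 8.71% (without WT replicate 4) of all genes tested. The 1 member higher, Hspa5, was called without WT replicate 4. Dnaja1 ranged from -0.53 to 0.02 and was above 0 only without WT replicate 4.

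Same-numbered libraries correlated at -0.127, 0.422 and 0.141 for replicates 2, 3 and 4. Differently numbered libraries were not correlated for reference, so these values cannot decide whether the numbers mark pairs. The main fit did not take them as pairs. With the replicate block on these 6 libraries 1 member (Psat1) and 2 other genes were lower, Eif2ak3 was at 0.02 and Dnajb1 at -0.10. That fit called 1.66% of all genes tested as lower. The same 6 libraries without the block, an alternative chosen after seeing the data, gave 2 members lower (P4hb and Psat1), 2 other genes lower, 0.06 for Eif2ak3 and -0.07 for Dnajb1. Of all genes tested 1.88% were called lower there.

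Under alternatives other than leaving out a library, 164 of 184 values of single named genes kept their direction without crossing the threshold. The same held for 140 of 146 values that left one out. Fits without an adjusted p for Psat1 or Gpt2 are not among these, except the white fat score for Psat1. Other values without an adjusted p were counted by direction alone. Hspa1a had an adjusted p in 5 of 16 alternatives, Hspa1b in 2 of 16, and Ern1, Eif2ak3 and Hsf1 in 10 of 18 each. At this depth the members without an adjusted p cannot be judged.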
